A study of Homo sapiens with 10 samples.

Results

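The response of K562 cells to OR21 was measured as the difference between 1 array of OR21-treated cells and 1 array of control cells. K562 is an established human chronic myeloid leukaemia line with erythroid and megakaryocytic features, which carries the BCR-ABL1 fusion. The 2 K562 arrays were chosen by their titles out of the 10 arrays of the series, and the difference was described across all 17687 genes that the platform annotation names. OR21, also written OR2100, is a silylated derivative of decitabine given as a hypomethylating agent. Treated K562 cells received 500 nM, and the labels give 96 hours for both the control and the treated cells. The comparison lines each had 1 control and 1 treated array as well: HL60 at 500 nM, and MDSL and SKM1, both from myelodysplastic disease, at 100 nM, all for 96 hours. MDSL was kept with IL-3, and the labels do not give the medium of K562. With 1 array per condition there is no replicate check, so every K562 difference below is a size without a test, and dose and line cannot be told apart where K562 is set beside MDSL or SKM1.

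Decitabine and its derivatives are taken up by nucleoside transporters, phosphorylated, and built into DNA during replication, where they trap DNA methyltransferase 1. Methylation is then lost as cells divide, and genes held silent by promoter methylation, such as germ cell and cancer-testis genes, can become expressed. K562 cells are also known to make embryonic and fetal haemoglobin and to move further along the erythroid path under several inducers.

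Promoters of 6 genes that carried large K562 differences are shown, because they represent the 4 gene groups described below and differ in base composition. They come from RefSeq, build GRCh38.p14, as 250 bases before to 50 bases after the first listed start, written 5′ to 3′ on the strand of the gene. The germ cell genes GCNA (chrX:71578187-71578486, plus strand) and DAZL (chr3:16605374-16605673, minus strand) have each CG, the site of DNA methylation, in capitals.
GCNA: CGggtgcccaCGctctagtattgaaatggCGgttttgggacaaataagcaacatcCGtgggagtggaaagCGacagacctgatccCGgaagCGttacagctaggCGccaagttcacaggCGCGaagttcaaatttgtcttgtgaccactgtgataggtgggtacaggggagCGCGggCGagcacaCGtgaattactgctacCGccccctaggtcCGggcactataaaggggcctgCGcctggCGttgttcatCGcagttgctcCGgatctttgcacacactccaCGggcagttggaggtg
DAZL: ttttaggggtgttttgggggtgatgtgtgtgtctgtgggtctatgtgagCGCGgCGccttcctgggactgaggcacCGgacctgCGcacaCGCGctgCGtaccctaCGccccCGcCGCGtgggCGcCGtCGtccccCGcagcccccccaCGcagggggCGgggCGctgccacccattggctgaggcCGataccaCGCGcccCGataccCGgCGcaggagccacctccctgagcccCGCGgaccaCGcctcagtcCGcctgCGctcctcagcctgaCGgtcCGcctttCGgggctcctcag
The red cell genes ALAS2 (chrX:55030928-55031227, minus strand) and EPB42 (chr15:43220969-43221268, minus strand) have AGATAA or TGATAA, the letters that GATA factors bind, in capitals on either strand.
ALAS2: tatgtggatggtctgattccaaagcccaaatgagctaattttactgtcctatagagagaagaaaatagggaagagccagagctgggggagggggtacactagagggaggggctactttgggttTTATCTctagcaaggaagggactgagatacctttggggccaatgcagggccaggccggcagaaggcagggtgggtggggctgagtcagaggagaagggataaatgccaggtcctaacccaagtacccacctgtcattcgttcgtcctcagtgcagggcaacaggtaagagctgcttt
EPB42: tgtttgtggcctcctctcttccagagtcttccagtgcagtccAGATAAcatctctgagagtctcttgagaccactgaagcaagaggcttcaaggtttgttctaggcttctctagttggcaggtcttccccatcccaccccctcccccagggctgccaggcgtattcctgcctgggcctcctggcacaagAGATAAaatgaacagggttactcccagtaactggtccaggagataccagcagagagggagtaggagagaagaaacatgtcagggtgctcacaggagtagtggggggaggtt
The metallothionein gene MT2A (chr16:56608334-56608633, plus strand) has TGCACNC or TGCGCNC, the core of the metal response element, in capitals on either strand, and the interferon-stimulated gene IFI6 (chr1:27672143-27672442, minus strand) has the core of the interferon-stimulated response element, that is GAAA, any 2 bases, then GAAA, in capitals on either strand.
MT2A: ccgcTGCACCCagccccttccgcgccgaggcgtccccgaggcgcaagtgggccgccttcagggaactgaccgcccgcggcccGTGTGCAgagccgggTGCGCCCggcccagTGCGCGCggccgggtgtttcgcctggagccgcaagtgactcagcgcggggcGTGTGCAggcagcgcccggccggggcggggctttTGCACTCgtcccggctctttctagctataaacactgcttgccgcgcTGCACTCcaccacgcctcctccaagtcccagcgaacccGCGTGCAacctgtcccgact
IFI6: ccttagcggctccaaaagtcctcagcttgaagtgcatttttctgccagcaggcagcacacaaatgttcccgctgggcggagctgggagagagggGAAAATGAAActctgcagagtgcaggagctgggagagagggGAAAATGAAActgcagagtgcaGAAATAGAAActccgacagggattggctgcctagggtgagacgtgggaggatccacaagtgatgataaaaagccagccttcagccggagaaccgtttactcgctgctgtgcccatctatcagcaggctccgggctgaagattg

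A promoter was found for 14250 of the 17687 genes, and each motif was counted on both strands. The GCNA promoter held 21 CG and the DAZL promoter 33, beside a median of 22 over all promoters, and 54.8% and 23.9% of all promoters held as many. The median was 21 CG for genes at least 2-fold higher in treated K562 cells and 25 for genes at least 2-fold lower. It was 20.5 for genes raised at least 2-fold from the background floor defined below, and 9 for genes at or under that floor on both arrays. GATA letters were present in 8 of the 14 red cell genes that were at least 2-fold higher and had a promoter (57.1%), in 37.5% of the 40 red cell list members with a promoter, and in 12.1% of all promoters. The metal response letters were present in 5 of 5 metallothionein promoters (MT2A held 8 matches) and in 35.1% of all promoters. The interferon letters were present in 6 of 11 interferon-stimulated genes that were at least 2-fold higher and in 14 of 19 that were not, beside 3.11% of all promoters. The share was thus no higher among the interferon-stimulated genes that differed in K562 than among those that did not. A match describes letters only, and binding or methylation was not measured.

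The arrays were single-colour, and values are given as log2 of the deposited intensity. The background floor of an array is the median of its 23 background probe sets, 5.42 log2 on the K562 control array and 5.41 on the treated array. The 95th percentile of these probe sets was 7.09 and 7.11, so a value above the floor can still lie within the background range. Where a control value lay at or under the floor, the fold is given against the floor as a minimum. In treated K562 cells 893 of 17687 genes (5.05%) were higher by 2-fold or more and 682 (3.86%) lower, 8.9% in all. The shares of 5.05% higher and 3.86% lower are the reference for each count of list members below. The same size was reached by 10.2% (higher) and 11.1% (lower) of genes in HL60, 7.1% and 4.47% in SKM1, and 6.62% and 4.88% in MDSL. Larger sizes lay mostly on one side: past 4-fold there were 176 higher and 22 lower genes, or 148 and 19 with values under the floor set to the floor. Past 16-fold there were 35 and 1, or 25 and 0 against the floor. The median difference over all genes was 0.00 log2 and the SD was 0.65, beside an SD of 1.05 in HL60, 0.77 in SKM1 and 0.75 in MDSL. Each array is of a bulk culture, so fewer cells of a kind and less RNA per cell cannot be told apart, and no label says whether control and treated cells were separate cultures. The split depended on the scaling. Centring each array on its median moved the median of all genes to -0.14 log2 and gave 682 higher and 1046 lower genes. Scaling to the hybridisation spikes moved it to 0.10 log2 and gave 1154 higher and 470 lower. The share of higher genes among those at least 2-fold different was 56.7% as deposited, 39.5% after centring and 71.1% after spike scaling, so differences of up to about these shifts are not read as a direction.

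**Figure D1:**
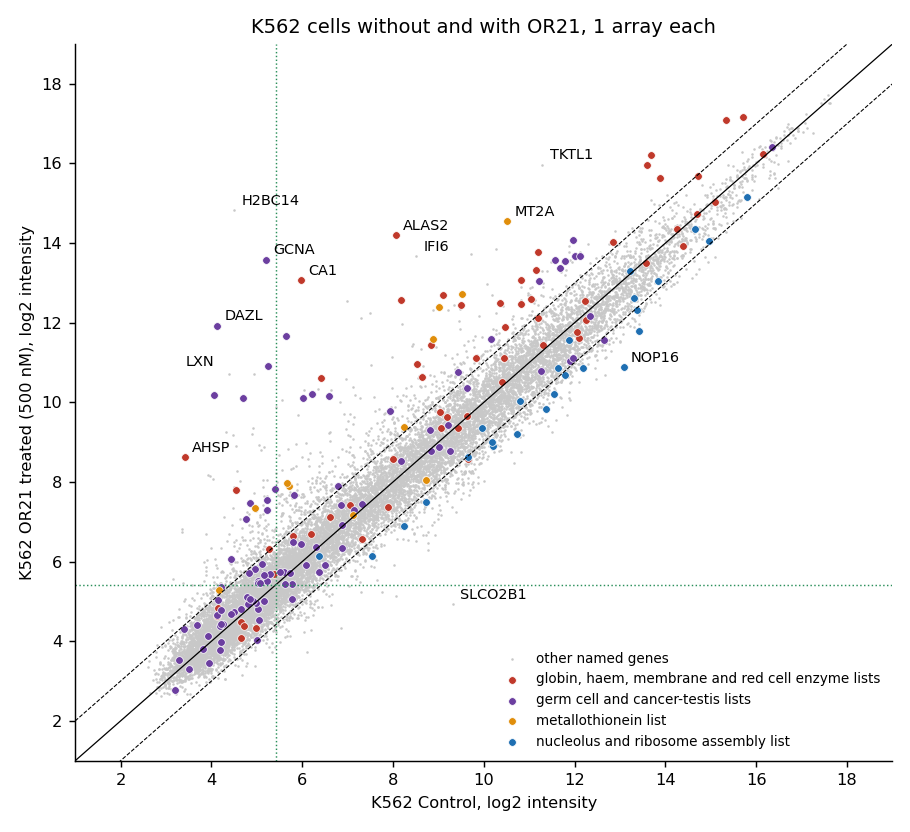
Each point is 1 of 17687 genes, with log2 intensity in K562 Control cells on the horizontal axis and in K562 OR21 treated cells on the vertical axis. The solid line is equality, the dashed lines are 2-fold, the dotted green lines are the background floors (5.42 and 5.41), and colours mark gene lists. Germ cell genes such as GCNA and DAZL start left of the floor, red cell genes such as ALAS2 and CA1 lie far above the upper dashed line, and most nucleolar genes lie under the line of equality.

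The noise of dim values sets a limit on these counts. Of the 5413 genes at or under the floor on both K562 arrays, 1.88% differed by 2-fold or more, against 10.7% of the 11101 genes above the floor on both. The 612 negative control probe sets were less steady, with an SD of 1.12 log2 and 29.9% past 2-fold, while the 23 background probe sets had an SD of 0.07. Gene medians of the 10 arrays ran from 6.63 to 7.05 log2, with the control K562 array the lowest, and the mean of the hybridisation spikes ran from 10.85 to 11.10, apart from 11.71 on the treated HL60 array. Setting values under the floor to the floor left 712 higher and 589 lower genes, an alternative chosen after seeing the data.

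The labelled identity was checked first. Control K562 cells had embryonic globin HBE1 at 13.59 log2, against 4.93 in HL60, 5.83 in MDSL and 5.80 in SKM1 controls. The erythroid transcription factor KLF1 stood at 10.17 in control K562 cells and at 4.67 to 5.45 in the other controls. SPI1, the myeloid factor PU.1, was at 7.51 in control K562 cells and at 11.38 to 12.05 elsewhere. Of 53 markers of lymphocytes, fibroblasts, endothelium, epithelium and neural cells, 26 were at or under the floor on both K562 arrays, 3 were at least 2-fold higher and 1, CD3D, was lower. The summed intensity of these 53 markers was 78753 in control and 88555 in treated cells. Their part in any result was not tested.

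The largest single difference in K562 was in H2BC14, a gene for a replication-dependent histone H2B. It was at 4.50 log2 in control and 14.83 in treated cells, at least 680-fold above the floor. Its control level was also at background in HL60 (3.83), while MDSL (15.27) and SKM1 (16.33) had it on before treatment and showed differences of -2.90 and -1.51. In HL60 the difference was 6.55 log2, in the same direction as in K562. Among the other large differences, GCNA, DAZL, TDRD12, HORMAD1 and SYCP3 belong to germ cells, and CA1, ALAS2, AHSP and RHCE to red cells. LXN, the carboxypeptidase inhibitor latexin, went from 4.40 to 10.72 log2. ALOX12, the platelet 12-lipoxygenase, went from 4.95 to 10.72. TKTL1, a transketolase-like gene already at 11.29 in control cells, was at 15.97 after treatment, 25.6-fold higher. AQP1, the water channel of the red cell membrane, stood at 7.29 and 12.13. The 25 largest higher differences were taken among genes whose treated value was at or above the array median. Of these, 14 started at or under the floor, 6 were also at least 2-fold higher in all 3 other lines, and 4 in none of them. Among all 893 higher genes the shares were 8.4% in all 3 and 49.9% in none.

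Many red cell genes were higher in treated K562 cells. Over the globin, haem, membrane and red cell enzyme lists, 26 of 62 measured members (41.9%) were at least 2-fold higher in K562, beside 5.05% of all genes. Among the 62, 1 was lower, and the median difference was 0.68 log2 against 0.00 for all genes. Only 3 of the 26 had a control value at or under the floor. Of the 26, 14 were at least 2-fold higher in none of the other lines, beside 49.9% of all 893 higher genes, 11 were also higher in MDSL, 2 in HL60 and 1 in SKM1. The same 62 genes had a median of 0.44 log2 in MDSL, and of -0.01 and -0.05 in HL60 and SKM1.

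Among the measured globins, the embryonic HBZ and HBE1 had the largest differences. The list medians were alike, 1.54 log2 for the 4 embryonic and fetal members and 1.56 for the 4 adult members. HBZ, the embryonic alpha-like chain, was at 13.68 log2 in control and 16.22 in treated cells, 5.84-fold higher. HBE1, the embryonic beta-like chain, was at 13.59 and 15.96, 5.18-fold higher. Adult chains were also higher, HBA1 from 15.72 to 17.16, HBA2 from 15.33 to 17.09 and HBB from 10.81 to 12.48. The treated values of HBA1 and HBA2 lay near the highest gene value of that array, 17.73, and compression there was not tested. In MDSL all 4 adult globins were at least 2-fold higher, with a median of 4.58 log2 beside 1.56 in K562. HBA1 and HBA2 encode the same protein and near-identical transcripts, so their probe sets may not be separate measurements. HBD, the minor adult delta chain, went the other way, with a difference of -0.76 log2. Fetal HBG1 and HBG2 were not analysed here.

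Haem synthesis was led by its erythroid first step. ALAS2, the erythroid 5-aminolevulinate synthase, went from 8.07 to 14.20 log2, 70.2-fold. Later enzymes of the pathway had smaller differences: UROS (uroporphyrinogen III synthase) 6.01-fold, CPOX (coproporphyrinogen oxidase) 2.46-fold, PPOX (protoporphyrinogen oxidase) 5.37-fold and FECH (ferrochelatase) 4.42-fold. SLC25A37, the mitochondrial iron importer mitoferrin-1, went from 11.14 to 13.33. UROD, uroporphyrinogen decarboxylase, differed by -0.06 log2, and the transferrin receptor TFRC differed by -0.45. In all, 6 of 19 members of this list were at least 2-fold higher and 1, the ferrireductase STEAP3, was lower.

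Of 15 red cell membrane and surface genes, 8 were at least 2-fold higher, with a list median of 1.19 log2. RHCE and RHD, the Rh blood group proteins, went from 8.17 to 12.58 and from 9.10 to 12.69 log2. These paralogs are close in sequence and their probe sets may share signal. EPB42, the membrane skeleton protein 4.2, went from 6.41 to 10.62, 18.5-fold higher. SLC4A1, the anion exchanger band 3, went from 4.55, under the floor, to 7.80. KEL and ERMAP, both blood group antigens, were 4.75-fold and 6.05-fold higher. By contrast RHAG, the partner of the Rh proteins, was at 14.70 and 14.73, and the membrane skeleton anchor ANK1 at 12.25 and 12.07. Glycophorins were not analysed here.

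**Figure D2:**
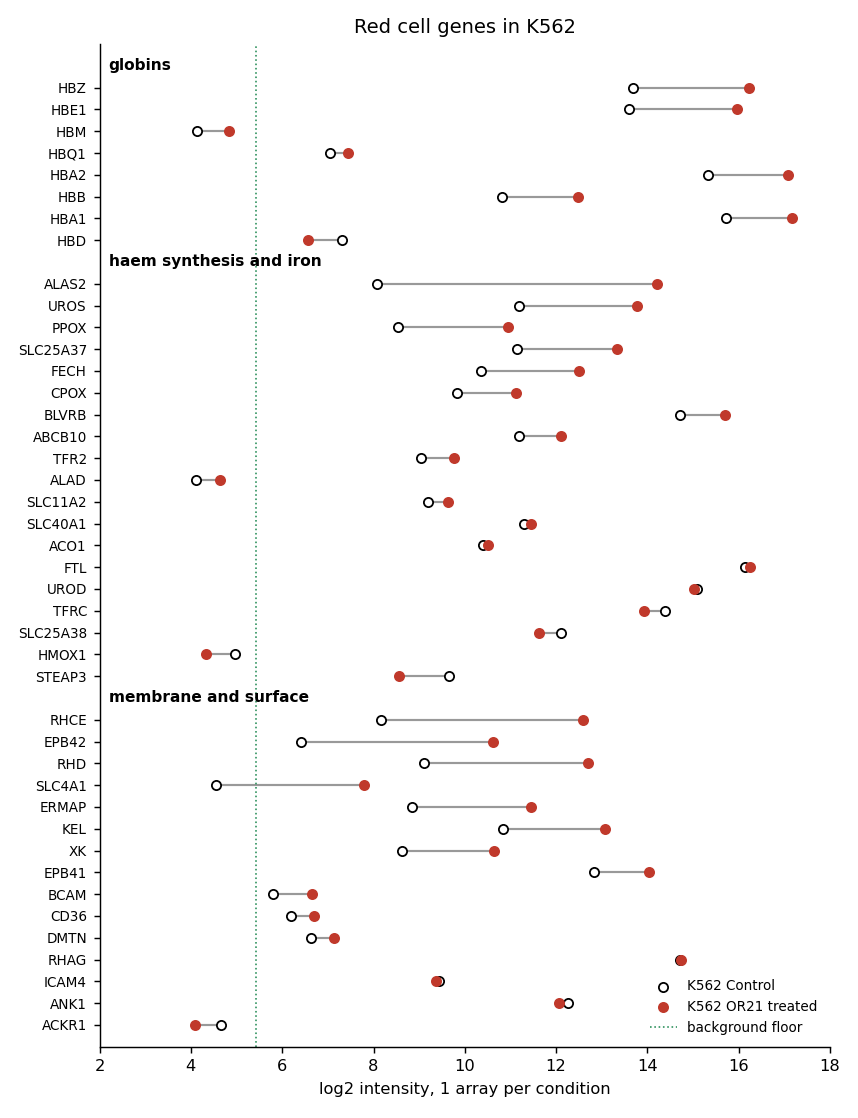
Levels of all measured members of the globin, haem and red cell membrane lists in K562, in log2 intensity on 1 array per condition. Open points are control, red points are treated, and the dotted line is the control floor of 5.42. ALAS2, RHCE and EPB42 have the longest bars, while RHAG, UROD and ANK1 hardly move and STEAP3 and HBD lie to the left of control.

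Among 20 red cell enzymes and maturation genes, 7 were at least 2-fold higher. CA1, the red cell carbonic anhydrase I, went from 5.98 to 13.06 log2, 136-fold. It was also higher by 5.28 in MDSL, and differed by -0.83 in HL60 and -0.84 in SKM1. AHSP, the alpha haemoglobin stabilising protein, went from 3.41 to 8.62, at least 9.16-fold above the floor. AHSP stayed under the floor in the other 3 lines, where treated and control differed by -0.16 (HL60), -0.01 (MDSL) and -0.10 (SKM1). PKLR, the pyruvate kinase of red cells and liver, was 7.76-fold higher, and the mitophagy receptor BNIP3L, which clears mitochondria in reticulocytes, 3.38-fold. Among transcription factors of the lineage, GATA1 (13.14 and 13.29 log2) and KLF1 (10.17 and 10.34) differed little. TAL1 (10.49 and 11.46) and GFI1B (12.12 and 13.01) were higher by 0.96 and 0.90, short of 2-fold. FOXO3 was the only one of 15 such factors past 2-fold, with a difference of 1.17. GATA2, the factor of earlier progenitors that gives way to GATA1 in red cells, was lower, from 10.60 to 9.40. In the other 3 lines GATA2 was higher by 3.27 (HL60), 1.49 (MDSL) and 2.88 (SKM1). KIT, the stem cell factor receptor, went from 5.56 to 8.30 log2, whereas it was lower by 2.00 in MDSL and 2.38 in SKM1 and higher by 0.85 in HL60.

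The platelet lineage list differed less than the red cell lists, with a median of 0.27 log2. Of 22 members 4 were at least 2-fold higher, beside 5.05% of all genes, and 7 were at the floor on both arrays. The largest difference in the list was in the platelet tubulin TUBB1, from 5.53 to 7.16 log2. ALOX12, given above, is not in this list. RUNX1, a factor of the megakaryocyte lineage, was at 10.32 and 11.52. In MDSL 13 of the same 22 genes were at least 2-fold higher.

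Germ cell genes held the clearest moves out of background. Of 47 measured germ cell and meiosis genes, 12 (25.5%) were at least 2-fold higher, beside 5.05% of all genes. None was lower, and 20 were at or under the floor on both arrays. The control was at the floor for 9 of the 12, and both arrays were for 1 more, PIWIL2. GCNA, the germ cell nuclear acidic peptidase, went from 5.21 to 13.58 log2, at least 286-fold above the floor. DAZL, an RNA-binding protein of germ cells, went from 4.13 to 11.93, at least 90.9-fold. TDRD12, a Tudor protein of the piRNA pathway, went from 4.07 to 10.19. Chromosome axis proteins of meiosis were among them as well: HORMAD1 from 5.65 to 11.66, SYCP3 from 4.70 to 10.12 and the meiotic cohesin STAG3 from 6.21 to 10.20. DAZL, GCNA and HORMAD1 were at least 4-fold higher in all 4 lines, and TDRD12 and SYCP3 had their largest difference in K562 (6.12 and 5.42), beside 0.69 to 3.95 and 0.49 to 2.74 in the others. The list median was 0.26 log2 and became -0.01 once values under the floor were set to it.

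Cancer-testis genes differed from this pattern because several were on before treatment. The 8 measured CT45A members of the list were at 11.21 to 12.13 log2 in control K562 cells and at 13.05 to 14.08 after treatment, differences of 1.56 to 2.11. Their copies are near identical, and CT45A8 and CT45A9 gave the same values, so they are not separate measurements. XAGE1B started under the floor, at 5.24, and reached 10.91, and PAGE2 and PAGE2B were 17.1-fold and 11.9-fold higher. Of this list 15 of 28 were at least 2-fold higher, beside 5.05% of all genes. MAGE genes were different again, with 2 of 21 higher and 1 lower: MAGEA9 went from 5.23 to 7.54, MAGEA1 from 6.79 to 7.89, and MAGEA6, already on, from 12.65 to 11.56. PRAME, another cancer-testis antigen, was at 16.34 and 16.42.

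**Figure D3:**
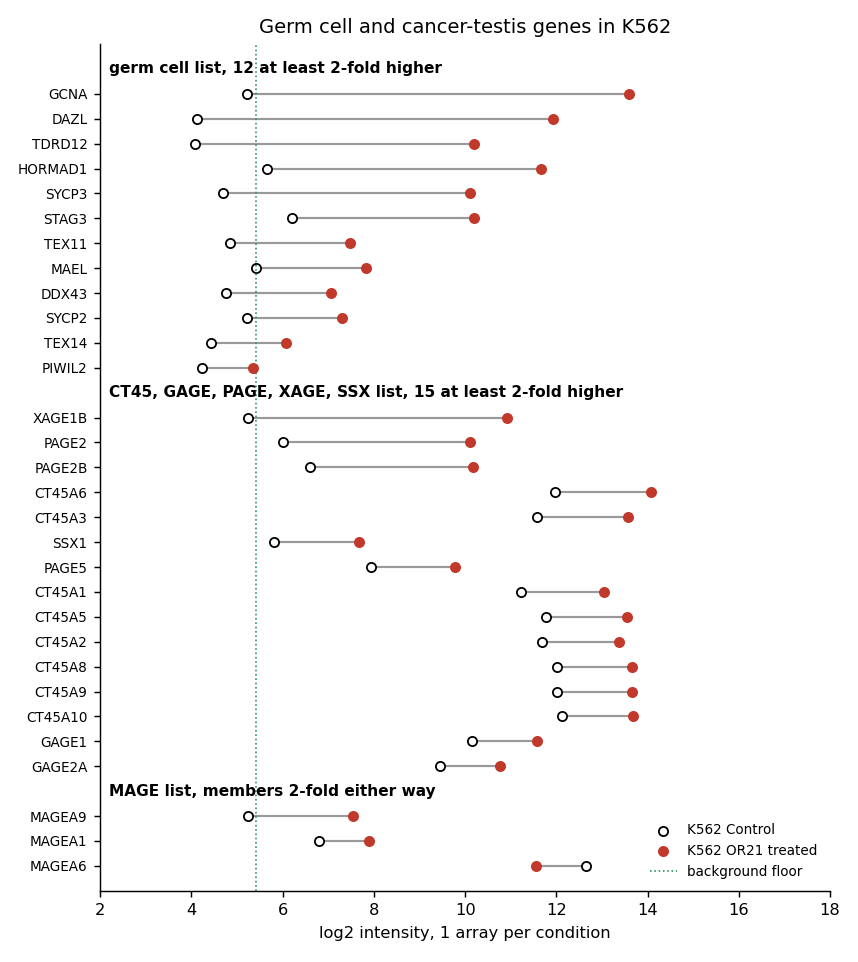
Levels in K562 of the germ cell and cancer-testis genes that were at least 2-fold different, in log2 intensity on 1 array per condition. Open points are control, red points are treated, and the dotted line is the control floor. GCNA, DAZL, TDRD12 and SYCP3 start left of the floor, the CT45A genes start between 11.21 and 12.13, and MAGEA6 is the only one lower after treatment.

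Metallothioneins, small proteins that bind zinc and copper, were higher almost without exception. Of 11 members of the list, which includes their regulator, 9 were at least 2-fold higher, beside 5.05% of all genes. The list median was 2.31 log2, beside 1.57 for HL60, 0.60 for MDSL and 0.03 for SKM1. MT2A went from 10.52 to 14.55 log2, 16.4-fold, and MT1X from 9.01 to 12.41, 10.5-fold. MT1G stood at 8.88 and 11.60 and MT1M, the least different of the run, at 8.25 and 9.39. MT4, one of the 9, was at or under the floor on both arrays, and the brain form MT3 stayed at 7.1 and 7.2. Control K562 cells had less MT2A than the other controls, where it stood at 14.71 to 15.65, so the treated K562 level remained under those of untreated MDSL, HL60 and SKM1. The regulator MTF1 differed by -0.68. The 10 neighbouring metallothionein genes and pseudogenes from MT2A to MT1X on chromosome 16 were all higher, by 1.15 to 4.75 log2, the longest such run. Related sequences in this cluster may share signal.

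Metal transporters did not follow as a group, with 2 of 20 higher and 2 lower, beside 5.05% and 3.86% of all genes. SLC30A10, a manganese and zinc exporter, went from 7.51 to 10.93 log2, while in each of the other lines it differed by less than 0.1. SLC39A8, an importer of zinc and manganese, went from 11.05 to 12.90, and SLC39A14, its relative, from 9.74 to 8.28.

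Interferon-stimulated genes were split. Of 38 measured, 12 (31.6%) were at least 2-fold higher, beside 5.05% of all genes, and none was lower. Among the 12, 2 were at or under the floor on both arrays and 1 more on the control array only. Their median was 0.52 log2, or 0.14 with dim values set to the floor. The other lines had 16 (HL60), 28 (MDSL) and 27 (SKM1) of the 38 past 2-fold. IFI6 went from 8.51 to 13.67 log2 and IFI27 from 5.56 to 10.05, both small membrane proteins induced by interferon. RSAD2, the antiviral enzyme viperin, went from 6.63 to 10.32, and its neighbour CMPK2 from 7.70 to 9.83. IRF9, the DNA-binding part of the interferon transcription complex, was 4.54-fold higher. IFIT1 stayed at the floor, with a difference of 0.04, beside 1.88 in HL60, 3.69 in SKM1 and 5.08 in MDSL, and USP18 (4.88 and 4.49) and OAS1 (5.61 and 5.39) were also at or near it. Of 18 sensors of foreign nucleic acid, 10 were at the floor on both arrays, RIGI was higher, from 5.84 to 7.64, and STING1 was lower, from 11.01 to 9.70.

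A further set comprised genes that were off in control K562 cells and on in every other line. Of the 95 genes (0.537% of all) that went from at or under the floor to at least 2-fold above it, 37 were at or under the floor in all 3 other controls, and 9 were at 8 log2 or more in all 3. GPX1, the main cytosolic glutathione peroxidase, went from 5.05 to 8.93 log2, against 12.99 or more in the other controls. PSMB9, a subunit of the immunoproteasome, went from 5.16 to 8.89, against 11.67 to 14.01. MEST, a paternally expressed imprinted gene, went from 4.05 to 8.07, against 9.56 to 13.38. BIN2, a membrane-shaping protein of leukocytes, went from 4.63 to 8.01, against 11.77 or more. The other 5 were IAH1, SP110, LPXN, LGALS9 and TMEM254, and none of the 9 reached the control level of another line. Treated values of these 5, from 6.61 to 6.93 log2, lay under 7.11, the 95th percentile of the background probe sets on that array. Further genes among the 95 lay under it too, down to IRAK2 at 6.44, so leaving the floor is not the same as leaving the background range. Of all 95 genes, 41 (43.2%) were at least 2-fold higher in none of the other lines and 10 (10.5%) in all 3, beside 49.9% and 8.4% of all 893 higher genes. Only 14 genes went the other way, from above the floor to at or under it by 2-fold or more.

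On the lower side, SLCO2B1, an organic anion transporter, had the largest difference, from 9.32 to 4.94 log2, at least 15.1-fold. NTS (neurotensin) went from 6.87 to 4.33, C3AR1 (the C3a receptor) from 7.75 to 5.23 and LPCAT1 (a phospholipid acyltransferase) from 8.78 to 6.29. FOSL1, an AP-1 subunit, went from 8.77 to 6.46. MECOM, the EVI1 oncogene locus, went from 8.65 to 6.66, and its differences in the other lines lay between -0.04 and 0.88. FASN, fatty acid synthase, went from 11.58 to 9.56 log2. Of the 25 largest lower differences, taken likewise by the control value, 11 were at least 2-fold lower in none of the other lines and 3 in all 3. Among all 682 lower genes, 349 were lower in none and 40 in all 3.

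Genes of ribosome assembly were lower in treated K562 cells, as in the other lines. Of 25 measured nucleolar genes, 14 were at least 2-fold lower, beside 3.86% of all genes. None was higher, and the median was -1.04 log2. NOP16 went from 13.08 to 10.88 log2, GPATCH4 from 13.43 to 11.80, NPM3, a nucleophosmin relative, from 11.38 to 9.83, and RRS1 from 10.73 to 9.21. POLR1B, the second largest subunit of RNA polymerase I, went from 8.25 to 6.90. The other lines had medians of -2.30 (HL60), -1.02 (MDSL) and -0.82 (SKM1). MYC, a driver of these genes, differed by -0.76 in K562, from 13.59 to 12.83, and by -4.62, -2.48 and -2.47 in HL60, MDSL and SKM1.

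Chaperones and glycolysis had lower members as well. Of 12 heat shock genes, 4 were at least 2-fold lower: HSPA1A (HSP70), the co-chaperone BAG3, and the mitochondrial pair HSPE1, from 14.59 to 13.13, and HSPD1, from 15.67 to 14.62. CRYAB, the small heat shock protein alpha-B crystallin, was higher, from 5.17 to 7.65. Of 20 glycolysis genes 4 were lower, among them hexokinase HK2, from 9.54 to 7.73, and the glucose carrier SLC2A3, from 13.87 to 12.46, and ALDOC was higher. NQO1, a quinone reductase, was 2.72-fold lower, while it was higher by 1.98, 1.28 and 2.26 in HL60, MDSL and SKM1. Of 20 ABL, JAK and STAT5 signalling genes, 3 were at least 2-fold lower, beside 3.86% of all genes, and none was higher. The list median was -0.085 log2, or 0.02 with spike scaling. The signal transducer STAT5A, which acts downstream of BCR-ABL1, went from 13.02 to 12.01, and its target CISH from 9.89 to 8.63. BCR and ABL1 themselves differed by 0.31 and 0.24. These arrays do not separate the fusion transcript from either parent gene.

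DNA replication genes had lower values in the other lines and differed little in K562. Of 33 DNA replication genes in K562, 1 was at least 2-fold higher and none was lower, with a median of -0.06 log2, which became 0.00 with quantile normalization and 0.04 with spike scaling. The same list had 19, 27 and 25 lower members in HL60, MDSL and SKM1, with medians of -1.16, -1.77 and -1.40. The K562 difference lay above all 3 other lines for 31 of the 33 genes, beside 29.2% of all genes. CDT1, a replication licensing factor, went from 7.96 to 9.07, beside -1.08, -1.67 and -1.75. Over the 33 genes, the median of the K562 difference minus the mean of the other lines was 1.23 log2. This size rests on 1 K562 pair, and the limma fit described below did not establish it for any member. Of 30 mitosis genes 1, BUB1, was at least 2-fold higher in K562 and none was lower. The mitosis list had a median of 0.20 log2 here, 0.25 in HL60, -0.90 in SKM1 and -1.61 in MDSL.

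Brakes of the cell cycle were mixed. CDKN1A, the p21 inhibitor induced by p53, was at 4.29 and 5.43 log2, that is at about the floor after treatment, while it was higher by 4.22, 4.03 and 3.48 in HL60, MDSL and SKM1. K562 is known to lack functional p53. Of 23 p53 target genes, 5 were higher and 2, AEN and TRIAP1, were lower, beside 5.05% and 3.86% of all genes. TP53INP1 went from 4.99 to 7.27. CCNG2, an unusual cyclin that slows the cycle, went from 7.12 to 9.45 log2. Of 5 YPEL genes, small zinc-binding proteins, 4 were at least 2-fold higher, YPEL3 from 6.98 to 12.55 and YPEL5 from 9.21 to 12.31. The ID proteins, which block basic helix-loop-helix factors, moved apart: ID2 went from 10.08 to 12.97 and ID3 from 6.59 to 9.24, but ID1 from 11.34 to 9.55. ID1 was higher in HL60 by 4.58 and in SKM1 by 1.37.

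Histone genes did not share a direction. Of 36 measured, H2BC14 included, 6 were at least 2-fold higher and 6 lower, and 1 of the higher ones, H4C13, was at or under the floor on both arrays. H1-5 went from 9.34 to 12.45 log2 and its neighbour H3C11 from 8.43 to 11.47, while H1-3 went from 11.82 to 9.68. MDSL and SKM1 had 24 and 20 of the 36 at least 2-fold lower. These genes lack poly(A) tails in dividing cells and close copies may share signal.

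Most genes for the enzymes and transporters that OR21 acts on or passes through differed by less than 2-fold, with DNMT3B and SLC29A1 just past it. DNMT1, the maintenance methyltransferase, was at 10.83 in control and 10.38 in treated K562 cells, a difference of -0.44 log2, beside -1.07 to -1.90 in the other lines. UHRF1, which guides DNMT1, differed by -0.53. The de novo enzymes went apart, DNMT3A from 9.22 to 10.14 and DNMT3B from 10.43 to 9.40. Of these and 15 other writers and erasers of DNA methylation, 1 was past 2-fold. SLC29A1, the main nucleoside transporter, went from 11.67 to 12.71, and DCK, the kinase that activates decitabine, differed by -0.16. CDA, the deaminase that breaks decitabine down, was under the floor on both K562 arrays, at 2.85 and 2.77, and was higher by 2.94, 2.30 and 1.13 in HL60, MDSL and SKM1. SAMHD1, a hydrolase of activated nucleotides, differed by 0.66. These are transcript levels, and enzyme protein was not measured.

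Fewer myelomonocytic and inflammatory genes were at least 2-fold higher in K562 than in the other lines. Past 2-fold in K562 were 3 higher and 3 lower of 28 myelomonocytic differentiation genes, against 19, 11 and 16 higher in HL60, MDSL and SKM1. Among all genes the K562 shares were smaller, 5.05% higher and 3.86% lower. TYROBP, an adaptor of phagocyte receptors, went from 7.39 to 8.78, and CYBA, a subunit of the phagocyte oxidase, from 12.15 to 10.95. CCL2, a monocyte chemokine, went from 5.73 to 4.64 log2, at about the floor, while it was higher by 6.59, 6.54 and 8.14 in HL60, MDSL and SKM1. Of 20 NF-kB and inflammation genes, 3 were higher, among them the feedback inhibitor TNFAIP3 (8.95 to 10.42) and IL6 (5.97 to 7.28). The other lines had 12 (HL60), 6 (MDSL) and 12 (SKM1) of the 20 at least 2-fold higher. Of 11 MHC class II genes 8 were at the floor on both arrays and none was past 2-fold. The anti-apoptotic genes BCL2 (7.53 to 5.89) and MCL1 (13.35 to 12.30) were lower, and of 11 housekeeping genes none was past 2-fold.

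The K562 response was set against the mean response of HL60, MDSL and SKM1 with limma, with cell line as a block over 8 arrays and 2 residual degrees of freedom. At a Benjamini-Hochberg adjusted p under 0.05 it called 0 of 17687 genes (0%), and 1085 (6.13%) had an unadjusted p under 0.05. The fit assumes that the 1 K562 pair varies like the other lines. The smallest adjusted p was 0.398, shared by AHSP (5.30 ± 0.39, SE, K562 minus the mean of the others), SLCO2B1 (-4.36 ± 0.39), CCL2 (-8.19 ± 0.75), RHCE (4.13 ± 0.40) and C3AR1 (-4.78 ± 0.47). MEST differed by 5.18 ± 0.57, with an adjusted p of 0.451 in limma. On simulated data with the same 17687 genes, 100 were set to differ by 4 log2, 100 by 8, and the other 17487 by 0. The test called 50, 93 and 9 of them, in that order. Other sizes and other numbers of differing genes were not tested, so these shares are not carried over to the measured arrays. The fit on the measured arrays called no gene as responding differently in K562. The comparisons between lines above are therefore values side by side.

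**Figure D4:**
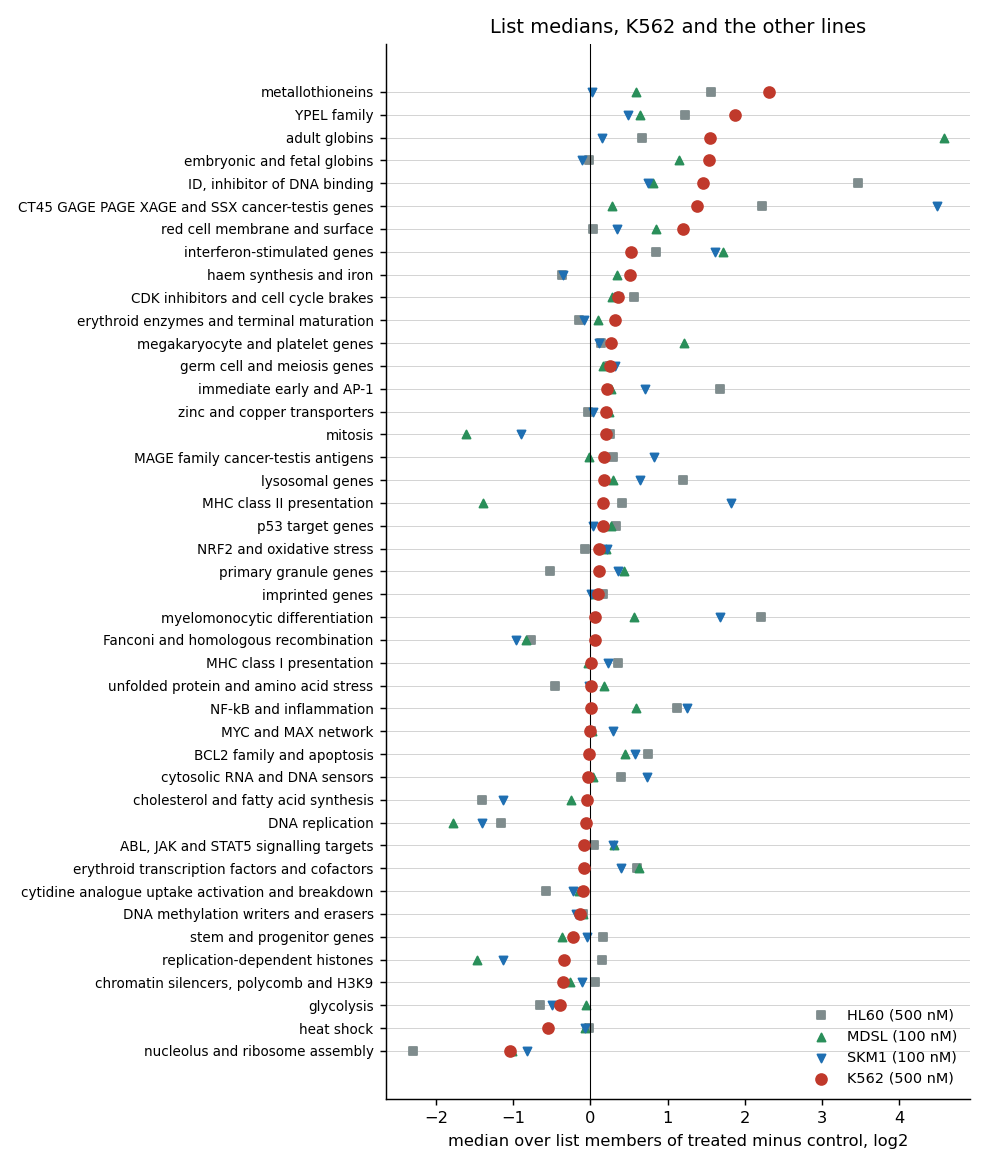
Median difference between treated and control over the measured members of each gene list, in log2, for K562 (red circles, 500 nM), HL60 (grey squares, 500 nM), MDSL (green, 100 nM) and SKM1 (blue, 100 nM). K562 lies highest for metallothioneins and YPEL genes, near 0 for DNA replication genes where the other lines lie between -1.16 and -1.77, and near 0 for myelomonocytic genes.

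As sizes, the K562 responses overlapped with the others in part. Of the 893 higher genes, 446 were at least 2-fold higher in none of the other lines, 227 in 1, 145 in 2 and 75 in all 3. Of the 682 lower genes, 349 were at least 2-fold lower in none of the others and 40 in all 3. Over the 9701 genes above the floor on all 8 arrays, the Pearson correlation of the K562 difference was 0.38 with HL60, 0.24 with MDSL and 0.29 with SKM1, while the other pairs had 0.41 to 0.61. Genes are not independent replicates, the arrays share one platform, and only HL60 shares the dose of K562. K562 lay at least 1 log2 above all 3 other lines for 451 genes and below them for 436. TCEA3, a transcription elongation factor relative, and DUSP21, a testis phosphatase, were at least 6.71-fold and 6.62-fold above the floor in treated K562 and within 0.5 log2 in each other line. LPCAT1, SLC10A4 and AGAP1 were lower by 2.49, 2.27 and 1.94 and within 0.5 log2 elsewhere.

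**Figure D5:**
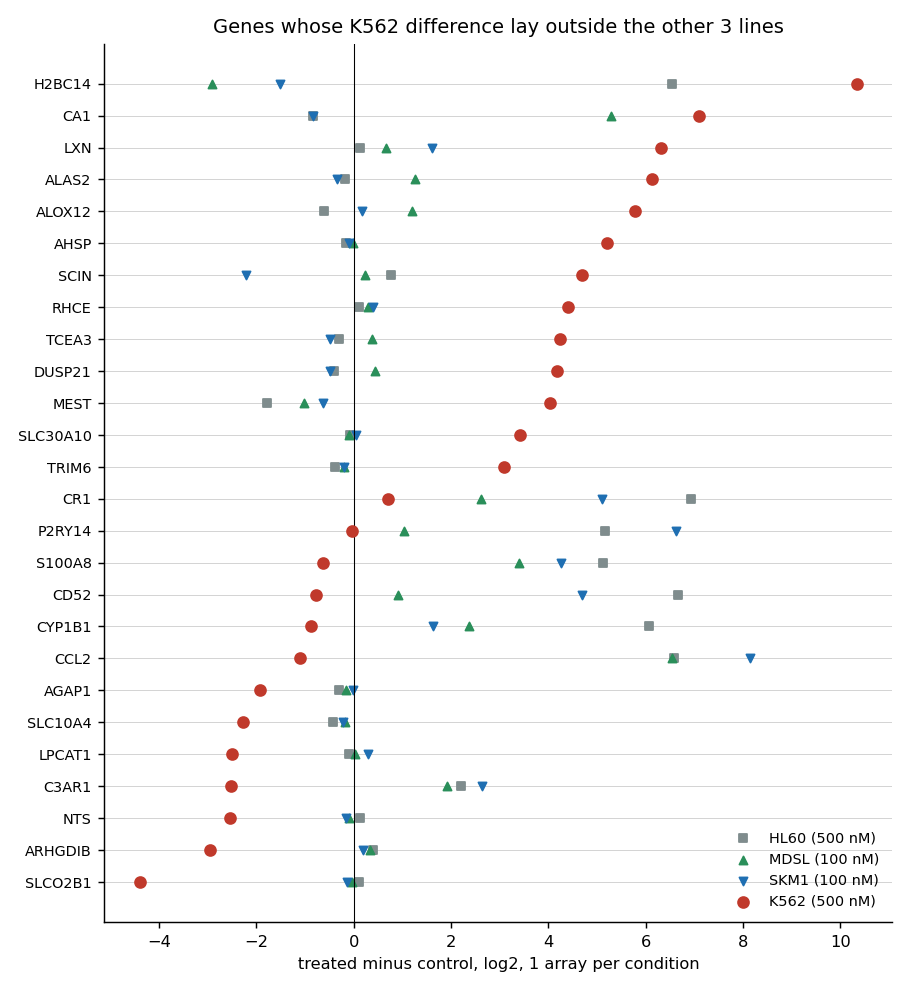
Treated minus control in log2 for genes whose K562 difference lay outside the range of the other lines, with 1 array per condition. Red circles are K562, grey squares HL60, green triangles MDSL and blue triangles SKM1. AHSP, RHCE, SLC30A10 and SLCO2B1 are near 0 in the other 3 lines, while CCL2, CR1 and S100A8 are higher in those lines and between -1.10 and 0.70 in K562.

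By position, the X chromosome held the largest share of higher genes among the chromosomes, 60 of 706 (8.5%) against 5.05% of all, and 8 that left the floor (1.13% against 0.537%). Among them were the 9 neighbouring CT45A genes, 4 GAGE genes, and a run of 3 in which ALAS2 lies next to PAGE2B and PAGE2. In all there were 9 runs of 3 or more neighbouring genes that were at least 2-fold higher and 1 that was lower. Besides the metallothionein, CT45A and GAGE runs, they included the aldo-keto reductases AKR1E2, AKR1C1, AKR1C2 and AKR1C3 on chromosome 10, with AKR1C3 going from 6.96 to 10.58 log2, and CMPK2, RSAD2, RNF144A and ID2 on chromosome 2. A run of 4 zinc finger genes on chromosome 7 (ZNF680, ZNF138, ZNF273 and ZNF92) was higher by 1.05 to 1.35. Near-identical copies within the CT45A, GAGE and AKR1C families may share signal, so the length of those runs overstates the number of separate measurements. So does the X chromosome share, in which the 9 CT45A and 4 GAGE genes each count. The next largest shares of higher genes were 6.48% on chromosome 6 and 6.31% on chromosome 10.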

How the data were processed

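Total RNA of HL60, MDSL, SKM1 and K562 cells was hybridised to 10 single-colour arrays, 1 per condition, and this small number of arrays sets the precision. The authors deposited linear intensities per probe set; their background correction and normalization are not given in the sources used here. Values were taken as log2 with no pseudocount, and no filter on low values was used. Of 24351 table rows, 17709 probe sets had 1 gene symbol, and 3739 further transcript probe sets had none. Where a symbol had several probe sets (20 genes), the one with the highest mean was kept. The K562 difference is the treated minus the control array. The floor is the median of the background probe sets. Members and gene lists were chosen with earlier results of these data known. Named genes were the 25 largest each way among genes whose higher value reached the array median, up to 6 members of each list by size, a fixed set of 22, neighbouring runs, and those farthest outside the other lines (8 and 6 each way); others were chosen after their values were seen. limma 3.58.1 (R 4.3.3) compared K562 with the mean of the other 3 lines, and was tested on simulated data. Python 3.11.15, numpy 2.4.6, pandas 2.3.3 and matplotlib 3.10.9 were used. Alternatives were other scalings, a pseudocount of 16, floors, probe set means, other folds and leaving out a line.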

Additional observations from a re-analysis of the deposited data

Results flagged for a closer look

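Genes are listed here because K562 and the other lines differed by 2-fold or more in opposite directions, with 1 array per condition, so that the difference at each gene was not tested beyond the limma fit, which called 0 genes. Higher in treated K562 cells and lower in all 3 other lines were CDT1 (1.1149 log2), which licenses replication origins, LZTFL1 (1.2156) and BDH1 (1.0186). BDH1 was at or under the floor on both K562 arrays, and its difference became -0.0134 with values under the floor set to the floor. Lower in K562 and higher in all 3 others were the receptors and chemokine C3AR1 (-2.5228) and CCL2 (-1.0983), the leukocyte surface proteins CD53 (-1.296) and CD69 (-1.552), and the progenitor factor GATA2 (-1.1942). The same held for NQO1 (-1.4454), the glucose carriers SLC2A3 (-1.415) and SLC2A14 (-1.1014), which are close paralogs and may share signal, and for TBL1X (-1.175), SLC9A9 (-1.0942) and RIN3 (-1.0501). Set to the floor, the differences became -0.0134 for SLC9A9, -0.057 for RIN3, -0.325 for CCL2 and -2.3452 for C3AR1, so that BDH1, SLC9A9, RIN3 and CCL2 were then no longer 2-fold in K562. The limma adjusted p was 0.398 for C3AR1 and CCL2 and 0.566, 0.613 and 0.734 for NQO1, CDT1 and GATA2.

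Among the 3739 probe sets without a gene name, which no comparison above used, 16 went from at or under the floor to at least 2-fold above it in K562, and 147 (3.93%) were higher by 2-fold or more against 134 lower.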

How the results depend on the processing

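The limma fit paired the treated and control arrays of each line, with cell line as the block, and gave 0 called genes; without that pairing it also gave 0. Leaving out HL60, MDSL or SKM1 in turn called 0 genes each time, as did every other setting of that fit, and the smallest adjusted p over them was 0.06254 with a mean-variance trend. Genes at an unadjusted p under 0.05 numbered 310 without the line block, 608 without SKM1 and 1564 without HL60, against 1085. Higher and lower counts were 176 and 22 at 4-fold and 2428 and 2236 at 1.5-fold, 682 and 1046 with median centring, 1154 and 470 with spike scaling, 857 and 712 with quantile normalization, and 675 and 528 with 16 added to each value. Of 216 named genes past 2-fold, 183 stayed past it under all 3 scalings. H4C13 had a difference of 1.01 log2 that became -0.0134 once values under the floor were set to the floor, since both of its arrays lay there. Of 343 list medians under alternatives 38 changed sign, in 22 lists, 2 moved by more than the spread of genes at the floor (SD 0.40 log2).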
